A study of Mus musculus with 2 samples.

Results

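Cytochrome P450 genes of families 1 to 4 were compared between mesothelial cells and liver cells of the mouse embryo. Members were the probe sets annotated with exactly 1 gene symbol made of Cyp, a family number from 1 to 4, a letter and a number. This rule took 67 of 45037 probe sets, which stood for 54 of 18193 genes: 3 of family 1, 35 of family 2, 5 of family 3 and 11 of family 4. RNA came from wild type C57Bl6 embryos at E12.5, and both samples were taken from the liver. The mesothelium is the flat covering layer of the organ, and its cells were isolated from trypsin-digested liver by FACS for the surface protein Pdpn (podoplanin). The labels do not say whether Pdpn-positive cells were removed from the liver cells or whether animals were pooled. No treatment is given, each group had 1 array, made from 20 ng of amplified RNA, and so there is no replicate check, no difference was tested, and each value describes these arrays only.

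P450 enzymes are haem proteins of the endoplasmic reticulum that insert 1 atom of oxygen into a substrate, with electrons passed on by the reductase Por and by cytochrome b5. Family 1 enzymes oxidise aromatic compounds and oestrogens and are induced through the aryl hydrocarbon receptor Ahr. Families 2 and 3 oxidise drugs, steroids and arachidonic acid, and family 4 hydroxylates fatty acids and eicosanoids at the end of the chain. In the mouse, many of the P450 genes known from the adult hepatocyte are turned on only around or after birth, while some members are best known from other epithelia and from mesenchyme.

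Promoters of 5 members are shown as examples from families 1, 2 and 4 of both directions and of both promoter kinds, rich and poor in CpG. Cyp2s1, Cyp1b1, Cyp4v3 and Cyp2d10 were at least 4-fold brighter in mesothelial cells, and Cyp4b1 was the member above the intensity floor that was at least 2-fold brighter in liver cells. Each run holds 250 bases before and 50 after the start of the gene, 5′ to 3′ along the gene, from RefSeq on GRCm38.p6. They lie at chr17:79715012-79715311, chr7:25816476-25816775, chr8:45333114-45333413, chr15:82407145-82407444 and chr4:115647672-115647971 in the order printed, all on the minus strand. Capitals mark the core of the aryl hydrocarbon receptor site (GCGTG), the TATA box (the letters TATAAA) and the GC box (the letters GGGCGG), each searched on both strands.
Cyp1b1: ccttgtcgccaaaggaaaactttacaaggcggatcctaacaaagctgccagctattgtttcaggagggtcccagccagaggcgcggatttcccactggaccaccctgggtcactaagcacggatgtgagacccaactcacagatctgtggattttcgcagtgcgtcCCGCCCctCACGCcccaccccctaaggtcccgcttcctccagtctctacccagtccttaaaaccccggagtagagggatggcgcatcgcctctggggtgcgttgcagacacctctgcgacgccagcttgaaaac
Cyp2s1: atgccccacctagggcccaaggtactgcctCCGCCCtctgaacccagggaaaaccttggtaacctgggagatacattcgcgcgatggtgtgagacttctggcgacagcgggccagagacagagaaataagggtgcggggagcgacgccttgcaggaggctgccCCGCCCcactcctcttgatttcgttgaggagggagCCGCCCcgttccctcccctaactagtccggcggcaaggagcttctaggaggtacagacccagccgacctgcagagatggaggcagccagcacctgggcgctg
Cyp4v3: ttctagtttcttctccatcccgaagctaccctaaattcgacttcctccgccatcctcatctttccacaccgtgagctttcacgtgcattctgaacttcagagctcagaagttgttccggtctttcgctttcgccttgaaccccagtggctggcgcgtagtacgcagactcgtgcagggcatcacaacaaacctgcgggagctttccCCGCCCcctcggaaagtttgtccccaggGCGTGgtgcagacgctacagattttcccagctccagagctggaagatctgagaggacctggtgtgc
Cyp2d10: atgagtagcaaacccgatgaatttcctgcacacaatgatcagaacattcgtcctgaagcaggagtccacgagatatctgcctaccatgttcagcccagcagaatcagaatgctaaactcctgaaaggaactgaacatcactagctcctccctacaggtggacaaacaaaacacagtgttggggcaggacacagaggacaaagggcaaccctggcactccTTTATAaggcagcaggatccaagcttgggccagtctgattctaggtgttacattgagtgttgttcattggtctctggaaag
Cyp4b1: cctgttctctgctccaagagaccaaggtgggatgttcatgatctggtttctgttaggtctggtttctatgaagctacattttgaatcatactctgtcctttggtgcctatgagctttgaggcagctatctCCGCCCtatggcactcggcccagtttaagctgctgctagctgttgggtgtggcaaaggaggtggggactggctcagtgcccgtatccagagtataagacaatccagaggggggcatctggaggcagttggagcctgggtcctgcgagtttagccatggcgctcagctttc
The Cyp1b1 promoter held 16 CpG dinucleotides and those of Cyp2s1 and Cyp4v3 held 17 each, against 3 for Cyp2d10 and 5 for Cyp4b1. Cyp2s1 had 3 GC boxes, Cyp1b1, Cyp4v3 and Cyp4b1 had 1 each, and Cyp2d10 had a TATA box. A match describes the letters in this window and is neither a bound site nor a cause.

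A control level and a floor are used to read the intensities, which are linear and as deposited. The control level is the brightest of the 27 probe sets for bacterial sequences, 16.2 on the mesothelial and 10.5 on the liver array. The floor is the median of all probe sets, 65.8 and 42.3, and a gene was above it where its value reached that of the array on at least 1 array. A difference is the mesothelial log2 intensity less the liver one, and 2-fold is a rule of size. The median difference of all genes was 0.66, so the typical gene was 1.58-fold brighter in the sorted cells, and differences relative to this median are given too. Each gene was read from its brightest probe set, and values of different genes are not set against each other, since probes differ in how they bind.

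Few members were bright. Of the 54 genes, 13 were above the floor (24.1%, against 66.1% of all genes), 24 were dim, that is under the floor but above the control level on at least 1 array, and 17 were at the control level on both (31.5%, against 10.1% of all genes). Among these 13 bright genes, 8 were at least 2-fold brighter in mesothelial cells, beside a background of 45.4% of all genes above the floor, and 1 was at least 2-fold brighter in liver cells, beside 3.83%. After each array was centred on its median, which removes 0.64 from each difference, the counts were 7 and 1, beside 23.9% and 9.25%. Centring on reference genes gave 6 and 2, beside 16.9% and 14.8%. With the hybridisation controls as the centre, a scaling chosen after the data were seen, they were 5 and 3, beside 14.6% and 17.9%. That centre is the median of the controls on each array, and it removes 1.08 from each difference. Paired one by one, the same controls had a median difference of 0.02, which does not give this shift. At a 4-fold threshold on the deposited values the counts were 6 and 0, beside 15.9% and 1.07%. A member could pass the floor through the array on which it was bright, so these counts describe the members that passed and not the family. Over all 54 genes the median difference was 0.17, or -0.49 relative to all genes, and its sign turned under each of these scalings. It lies between Cyp2d13 and Cyp1a1, both at the control level on both arrays, so it reads background and gives no direction for the families. Ranks within an array do not depend on a scale factor, and 26 of the 54 (48.1%) ranked higher on the mesothelial array, against 53.8% of all genes.

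**Figure D1:**
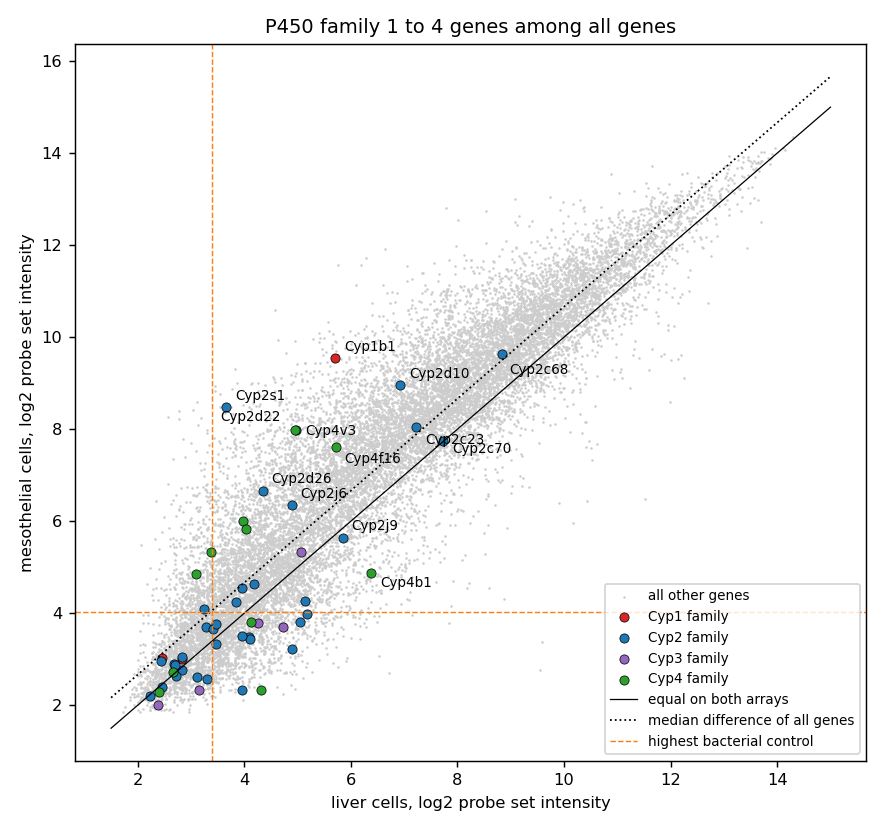
Log2 probe set intensity of each gene in liver cells (x axis) and mesothelial cells (y axis), 1 array each, with the 54 P450 genes coloured by family over all genes in grey. The 13 genes above the floor are named, the dashed lines are the control levels, and Cyp2s1 and Cyp1b1 stand furthest above the line of equal intensity while Cyp4b1 lies below it.

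Marker genes of several cell types differed between the arrays and bear on every value below. Of the mesothelial markers above the floor, 10 of 10 were at least 2-fold brighter in the sorted cells (summed intensity of the 11 measured 12402 against 510.2), so the label was borne out. Also at least 2-fold brighter in the sorted cells were 12 of 12 stellate and mesenchyme markers (27506 against 4065), 8 of 8 megakaryocyte markers, 7 of 8 striated muscle markers and 5 of 7 macrophage markers. After median centring these 4 counts were 9, 5, 5 and 3, and that of the mesothelial markers stayed at 10, beside 23.9% of all genes. Hepatoblast markers were present on both arrays, with 2 of 11 at least 2-fold brighter in mesothelial cells (18.2%, against 45.4% of all genes, and 0 after median centring) and none in liver cells, and a summed intensity of 94609 against 63315. At least 2-fold brighter in liver cells were 6 of 8 erythroid and 6 of 7 granulocyte markers above the floor, beside 3.83% of all genes. Of 10 endothelial markers 4 were at least 2-fold brighter in mesothelial cells (2 after median centring, with 1 toward liver cells). Of 8 gut and pancreas markers 2 were above the floor and 3 were at the control level on both arrays. In a mixed sample, fewer cells of a type and less RNA per cell cannot be told apart, and the part of these cell types in the P450 values was not tested.

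Family 1 was represented by Cyp1b1. Cyp1b1, an enzyme of oestrogen, retinoid and polycyclic hydrocarbon metabolism found mostly outside the liver, read 749.6 in mesothelial and 51.9 in liver cells, a difference of 3.85, or 14.4-fold, and 3.19 relative to all genes. Its other probe sets read 33.1 against 5.6 and 21.9 against 18.4, so that all 3 were brighter in mesothelial cells while the SD between their differences was 1.82. The difference of the last, 0.25, was under the median of all genes, 0.66. With the median over the 3, the difference was 2.56 and the gene fell under the floor. Cyp1a1, the best known target of Ahr, read 8.0 and 7.1, and Cyp1a2, an enzyme of adult hepatocytes, read 8.2 and 5.5. Both lay at the control level on both arrays, where no fold can be given. The 3 family 1 genes thus split into 1 that was above the floor and 2 that were not distinguishable from background.

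In family 2, Cyp2s1 differed by more than any other P450 gene of these families. Cyp2s1, a P450 of epithelia outside the liver, read 355.9 in mesothelial and 12.6 in liver cells, just above the control level there, a difference of 4.82, or 28.2-fold, and 4.16 relative to all genes. It has 1 probe set, so no spread between probe sets is known. RefSeq places it in a run of P450 genes beside Cyp2b10, Cyp2b13 and Cyp2b9. None of these neighbours was bright: Cyp2b10, a target of the receptor Nr1i3, read 17.0 and 9.5, Cyp2b9 read 11.1 and 17.1, and Cyp2b13 was at the control level on both arrays.

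The Cyp2d subfamily, which oxidises many drugs, gave 3 genes above the floor. As deposited, all 3 were at least 4-fold brighter in mesothelial cells, beside 15.9% of all genes above the floor. After median centring Cyp2d22 stayed above 4-fold, at 2.38, while Cyp2d26 was at 1.68 and Cyp2d10 at 1.39. Cyp2d22 and Cyp2d26 passed the floor through the mesothelial array alone, as did Cyp2s1, Cyp2j6 and Cyp4v3. Cyp4b1 and Cyp2j9 passed it through the liver array alone. Cyp2d22 read 254.1 against 31.3, a difference of 3.02, and its second probe set read 147.9 against 33.0, with an SD of 0.61 between the 2 differences. Cyp2d26 read 101.3 against 20.3, a difference of 2.32, and Cyp2d10 read 496.9 against 122.0, a difference of 2.03. Centring on the hybridisation controls took Cyp2d10 to 0.95, under 2-fold. The other 5 measured Cyp2d genes were near background: Cyp2d12, Cyp2d13 and Cyp2d34 were at the control level on both arrays, Cyp2d9 read 12.6 and 10.7, and Cyp2d40 read 10.1 and 11.1. In RefSeq, Cyp2d22 and Cyp2d26 lie at opposite ends of a run of 8 Cyp2d genes, 7 of them measured, and the dim ones lie between them with Cyp2d10. The genes of this run resemble each other closely, so a probe set may also bind transcripts of its neighbours, and the gene named is that of the annotation.

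The Cyp2c subfamily, enzymes of arachidonic acid, drug and bile acid oxidation, had 3 of 11 genes above the floor, and none of these reached 2-fold. Cyp2c68 read 790.1 in mesothelial and 457.3 in liver cells, a difference of 0.79, and Cyp2c23 read 262.6 against 149.4, a difference of 0.81. Cyp2c70, which makes the muricholic bile acids of rodents, read 214.7 and 213.3, a difference of 0.0094. Relative to all genes these were 0.12, 0.15 and -0.65, and the signs of Cyp2c68 and Cyp2c23 turned under quantile normalization. They were the members above the floor closest to the threshold from outside, and Cyp2j6 and Cyp4b1 were the closest from inside. The 11 hepatoblast markers had a median difference of 0.63, and the part of hepatoblasts in these values was not tested.

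Of the 5 dim Cyp2c genes, 4 were brighter on the liver array, beside 34.4% of all dim genes, and all 4 were at the control level on the mesothelial array. Cyp2c50 read 15.7 against 36.1 and was at least 2.23-fold brighter in liver cells, and Cyp2c65 read 9.3 against 29.9, at least 1.85-fold. A lower value at the control level gives only a bound, which is written as at least N-fold. Cyp2c29 read 5.0 against 15.5, and since the control level in mesothelial cells is 16.2, no fold can be given. Cyp2c55 read 10.9 against 17.2 and Cyp2c54 read 19.0 against 14.3, while Cyp2c37, Cyp2c38 and Cyp2c39 were at the control level on both arrays. Cyp2c68, Cyp2c70 and these dim genes lie in a single run of 14 Cyp2c genes in RefSeq, 10 of them measured, and neighbours in it went from above the floor to control level.

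In the Cyp2j subfamily, which makes epoxides of arachidonic acid, neighbouring genes went different ways. Cyp2j6 read 81.8 in mesothelial and 29.6 in liver cells, a difference of 1.47, and its second probe set read 17.6 against 15.6. Its difference was 0.83 after median centring and 0.82 with the median over its probe sets, so it no longer reached 2-fold. Cyp2j9 read 5.64 against 5.85 as log2 intensity, a difference of -0.20, and counted as brighter in liver cells once the arrays were centred on reference genes. Cyp2j5, a P450 of liver and kidney, was dim at 14.0 against 32.9 and at least 2.03-fold brighter in liver cells, and its second probe set, at the control level on both arrays, read 5.6 and 8.9. Cyp2j13 read 13.5 and 11.1, and Cyp2j11 was at the control level.

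**Figure D2:**
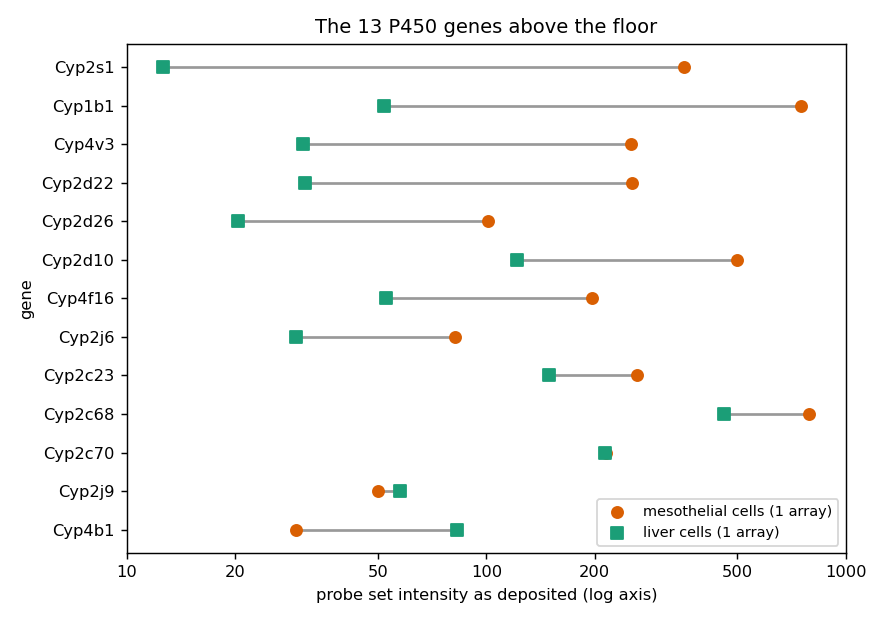
Probe set intensity as deposited (x axis, log scale) of the 13 P450 genes above the floor (y axis), in mesothelial cells (circles) and liver cells (squares), with 1 array each and so no error bars. Genes are ordered by their difference: 8 from Cyp2s1 to Cyp2j6 are at least 2-fold brighter in mesothelial cells, 4 lie within 2-fold, and Cyp4b1 is brighter in liver cells.

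The other family 2 genes were dim or at background. Cyp2a12, a steroid hydroxylase of the liver, read 19.1 in mesothelial and 35.2 in liver cells, a difference of -0.88. Cyp2r1, the vitamin D hydroxylase of the liver, read 24.7 and 18.2, and Cyp2u1, which hydroxylates long fatty acids, read 23.3 and 15.5. Cyp2g1, an olfactory P450, read 11.3 and 15.5, with the mesothelial reading at the control level, so no fold can be given. Cyp2e1, the ethanol-oxidising enzyme of the adult hepatocyte, read 5.3 and 5.5, and Cyp2f2, known from airway cells, read 6.2 and 6.6. Cyp2e1 and Cyp2f2 were thus at the control level on both arrays, as was Cyp2b19, although transcripts of hepatoblasts were bright on both.

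No family 3 gene was above the floor. The family, which oxidises steroids and drugs, was measured by 5 Cyp3a genes, and their median difference was -0.48, which is -1.14 after subtracting that of all genes. This median is the value of Cyp3a16, whose mesothelial reading lay at the control level. Cyp3a44 read 12.9 in mesothelial and 26.3 in liver cells and was at least 1.62-fold brighter in liver cells, and Cyp3a16, known as the form of the fetal liver, read 13.7 against 19.1, at least 1.18-fold. Cyp3a13, which lies apart from the others in the genome, read 40.1 and 33.3 and was the single member brighter in mesothelial cells, by 0.27. Cyp3a11, the main form of the adult liver, read 5.0 and 8.9, and Cyp3a25 read 4.0 and 5.2, both at the control level. Cyp3a genes resemble each other closely, so a probe set may bind more than 1 of them.

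Family 4 had the highest median, 1.76 over 11 genes, or 1.10 relative to all genes, and members on both sides. This median is the value of Cyp4f39, whose liver reading lay at the control level. The Cyp1 and Cyp2 medians are the values of Cyp1a2 and Cyp2d13, both at the control level on both arrays, so the medians do not rank the families. With that reading held at the control level, the difference of Cyp4f39 was 1.46. Cyp4v3, a fatty acid hydroxylase, read 253.4 in mesothelial and 30.8 in liver cells, a difference of 3.04, or 8.23-fold. Its second probe set read 63.8 against 14.6, with an SD of 0.65 between the 2 differences. The brighter probe set is of a kind that can cross-hybridise, and without it the difference was 2.13 and the gene was under the floor.

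The Cyp4f subfamily, which hydroxylates leukotrienes and fatty acids, was brighter in mesothelial cells for 5 of 6 genes, beside 77.6% of all genes, and 4 were at least 2-fold brighter at any level, beside 36.2%. Cyp4f16 read 196.4 against 52.5, a difference of 1.90, and its second probe set read 33.7 against 19.3, a difference of 0.80. Centring on reference genes took Cyp4f16 to 0.95. Cyp4f13 read 64.2 against 15.8, just under the floor, a difference of 2.02, Cyp4f15 read 40.0 against 10.4 and was at least 3.81-fold brighter, and Cyp4f39, whose human counterpart acts on the lipids of the skin barrier, read 28.8 against 8.5, at least 2.74-fold. These 4 genes lie in 2 runs on the same chromosome in RefSeq. Cyp4f14, next to Cyp4f13, read 6.6 and 6.3, at the control level. Cyp4f18, which inactivates leukotriene B4 in neutrophils and lies on another chromosome, read 14.0 against 17.4. Its mesothelial reading lay at the control level, so it was at least 1.07-fold brighter in liver cells, close to no difference. Granulocyte markers were brighter in liver cells, and the part of those cells in this value was not tested.

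Cyp4b1, known from lung and kidney, read 29.5 in mesothelial and 83.1 in liver cells, a difference of -1.49, or 2.82-fold brighter in liver cells, and -2.16 relative to all genes. No other member above the floor reached 2-fold on the liver side with the values as deposited. Cyp4x1, best known from brain, lies at the other end of the same run of 10 family 4 genes in RefSeq and was dim in the opposite direction, at 57.3 against 16.4, a difference of 1.80. Between them in that run, Cyp4a14, a target of the fatty acid receptor Ppara, read 5.0 against 20.0 and was at least 1.23-fold brighter in liver cells, and Cyp4a31 was at the control level on both arrays.

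**Figure D3:**
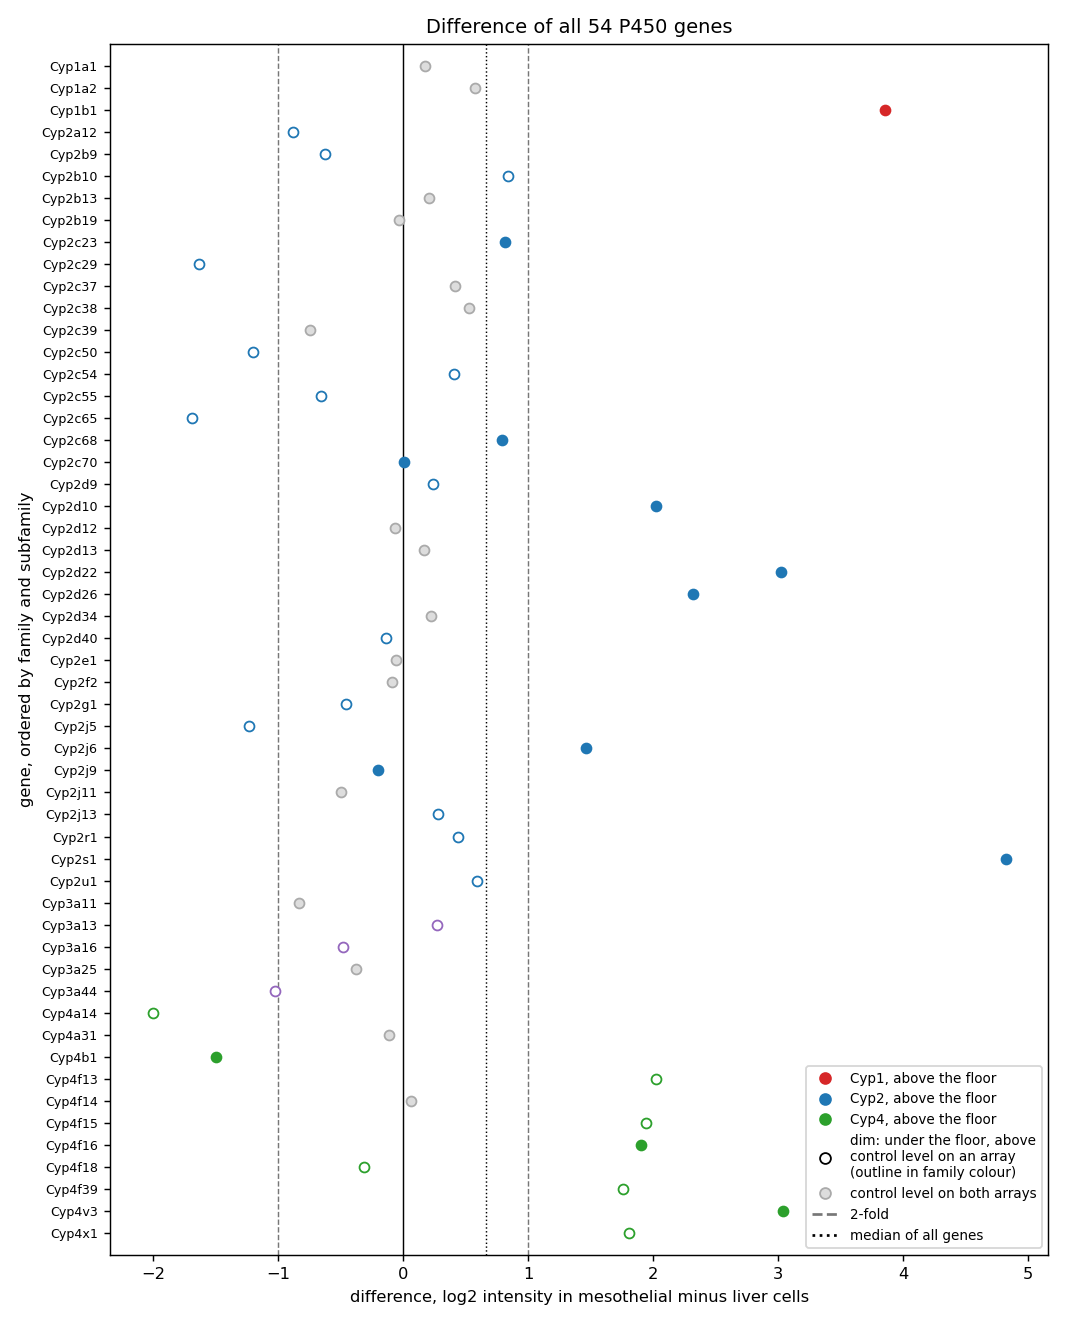
Difference of each of the 54 P450 genes (log2 intensity in mesothelial minus liver cells, x axis), ordered by family and subfamily, with filled points above the floor, open points dim and grey points at the control level on both arrays. Cyp2d10, Cyp2d22, Cyp2d26, Cyp2j6, Cyp4f13, Cyp4f15, Cyp4f16, Cyp4f39, Cyp4v3, Cyp4x1, Cyp1b1 and Cyp2s1 hold the right side. Cyp2c29, Cyp2c50, Cyp2c65, Cyp2j5, Cyp3a44, Cyp4a14 and Cyp4b1 hold the left. The other Cyp2d, Cyp4f and Cyp2c genes lie within 2-fold.

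Dim members divided in both directions. With values under the control level held at it, 4 of the 24 were at least 2-fold brighter in mesothelial cells (16.7%, against 21.9% of 4340 dim genes), all of family 4. On the liver side Cyp2c50 and Cyp2j5 reached 2-fold in this way (8.33%, against 1.36%). Cyp2c29, Cyp2c65, Cyp3a44 and Cyp4a14 differed by over 2-fold as deposited, but their mesothelial values lay at the control level and their bounds do not reach 2-fold. With no floor and deposited values, 12 of the 54 genes passed the threshold toward mesothelial cells, beside 36.2% of all genes, and 7, these 4 included, toward liver cells, beside 4.16%. With low values held at the control level the counts were 12 and 3, beside 35.2% and 2.85%. Of the 24, 14 were at the control level on the mesothelial array alone and 3 on the liver array alone, and the control level itself was higher on the mesothelial array. Over all probe sets, 76.8% were brighter than the control level on the mesothelial array and 82.4% on the liver array. The same split was not counted for all dim genes, so it is not read as a trait of the members. Over the 20 members above the control level on both arrays the median difference was 1.14, against 0.81 for all such genes, and over the 37 above it on at least 1 array it was 0.28, against 0.76. These subsets, and the counts with low values held, were chosen after the data were seen.

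Several probe sets were available for 11 of the 54 genes, and they give the only measure of spread here. All probe sets of Cyp1b1, Cyp2d22, Cyp2j6, Cyp4f16 and Cyp4v3 were brighter in mesothelial cells, as were 77.6% of all genes. The SDs between their differences were 1.82, 0.61, 0.91, 0.78 and 0.65. A probe set of Cyp1b1 at 0.25 and one of Cyp2j6 at 0.17 lay under the median difference of all genes, 0.66. Relative to all genes, the probe sets of Cyp1b1 and of Cyp2j6 thus went both ways. The pooled SD over 5323 genes with several probe sets above the floor was 0.70. It leaves out probe sets under the floor, while the SDs of single genes take all of them. Only Cyp2d22 among these genes had more than 1 probe set above the floor, so only its SD is of a like kind. The pooled SD compares probe sets on the same arrays and holds no variation between embryos, sorts or amplifications. The differences of Cyp2s1, Cyp2d26, Cyp2d10 and Cyp4b1 rest on 1 probe set each.

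**Figure D4:**
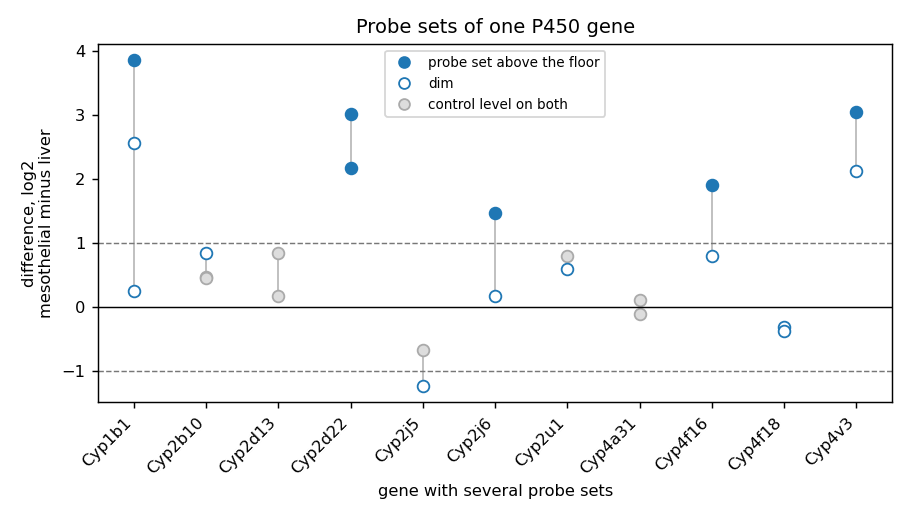
Difference (log2 intensity in mesothelial minus liver cells, y axis) of every probe set of the 11 P450 genes with several probe sets, joined by a line for each gene, with filled points above the floor, open points dim and grey points at the control level on both arrays. The 3 probe sets of Cyp1b1 spread widest, from 0.25 to 3.85, and those of Cyp2d22 are both above the floor.

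Promoter letters were compared across the members as a description. RefSeq promoters were matched for 43 of the 54 genes. A TATA box was found in 18 of the 43 (41.9%, against 15.7% of 27018 genes in the table), a GC box in 11 (25.6%, against 38.2%), the aryl hydrocarbon receptor core in 11 (25.6%, against 35.2%) and a CCAAT box (CCAAT) in 21 (48.8%, against 41.1%), with matches of different motifs counted separately even where they overlap. The members had a median of 2.0 CpG dinucleotides in 300 bases, against 7.0 in the table. Among the 7 matched genes that were above the floor and at least 2-fold brighter in mesothelial cells, 5 had a GC box and 2 a TATA box, those of Cyp2d10 and Cyp2d26. Among the 13 matched genes at the control level on both arrays, 1 had a GC box and 6 a TATA box. CpG dinucleotides ranged from 1.0 to 17.0 in those 7 genes and from 0.0 to 4.0 in those 13. Cyp2r1 had the most of the matched members, 22, and was dim. The core of the aryl hydrocarbon receptor site was found in both Cyp1b1 and Cyp1a1, which were above the floor and at the control level respectively.

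The genes that serve P450 enzymes did not move as a block. Of 9 measured redox partners, 8 passed the floor. At least 2-fold brighter in mesothelial cells were 2 (25.0%, against 45.4% of all genes). After median centring 1 was, with 1 toward liver cells, beside 23.9% and 9.25% of all genes. The median of the 9 was 0.62, against 0.66 for all genes. Por and Fdxr were not analysed here. Pgrmc1, a haem-binding membrane protein that associates with P450 enzymes, read 1956 against 492.9, a difference of 1.99, and Fdx1, the electron carrier of mitochondrial P450 enzymes, differed by 1.06. The cytochrome b5 genes Cyb5a and Cyb5b, which pass electrons to microsomal P450 enzymes, differed by -0.05 and 0.72. The reductases Cyb5r4 and Cyb5r3 differed by 0.63 and -0.53.

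Among 29 measured regulators, 24 passed the floor. At least 2-fold brighter in mesothelial cells were 11 (45.8%, against 45.4% of all genes). Once the arrays were median centred 3 were, with 1 toward liver cells, beside 23.9% and 9.25% of all genes. The median of the 29 was 0.84. Ahr, the receptor that induces family 1, read 876.2 in mesothelial and 102.7 in liver cells, a difference of 3.09 (SD 1.29 over 2 probe sets), and its partner Arnt differed by 1.20. The clock output factor gene Dbp differed by 2.10, the bile acid receptor gene Nr1h4 by 1.68 and the hepatocyte factor gene Hnf4a by 1.60, while Onecut1, another hepatocyte factor, differed by -0.85. The drug receptor genes Nr1i2 and Nr1i3 were under the floor at 54.9 against 10.8 and 23.8 against 14.0. Of 9 targets of Ahr and of the stress factor Nfe2l2 outside the P450 genes, 7 passed the floor and 2 reached 2-fold toward mesothelial cells (28.6%, against 45.4% of all genes). After median centring 0 did, and 1 reached it toward liver cells, beside 23.9% and 9.25% of all genes. Tiparp, a target of Ahr, differed by 1.40 and Hmox1, the haem oxygenase, by 1.03, whereas Gclc differed by 0.33 and Nqo1 by -0.45, and the Ahr targets Ahrr and Aldh3a1 were at the control level on both arrays like Cyp1a1.

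P450 genes of families above 4, which make and break down steroids, bile acids and retinoids, were measured for 19 genes. The floor was passed by 11, of which 8 reached 2-fold toward mesothelial cells (72.7%, against 45.4% of all genes) and 1 toward liver cells (beside 3.83%). After median centring 6 and 1 did, beside 23.9% and 9.25% of all genes. The median of the 19 was 0.71, which is the value of Cyp8b1. That gene was at the control level on both arrays, so this median reads background. Ptgis, the prostacyclin synthase, differed by 3.87, the cholesterol hydroxylase gene Cyp46a1 by 3.45, and the oxysterol hydroxylase genes Cyp7b1 and Cyp39a1 by 2.89 and 2.28. Cyp7a1, the rate-limiting enzyme of bile acid synthesis, read 10.8 against 47.4 and was at least 2.93-fold brighter in liver cells, and the SD over 2 probe sets was 1.37.

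Other enzymes that act beside P450 enzymes were also measured. Of 20 oxidation and hydrolysis enzymes, 12 passed the floor. Toward mesothelial cells 10 reached 2-fold (83.3%, against 45.4% of all genes). Once the arrays were median centred 4 of the 12 did, beside 23.9% of all genes. The median of the 20 was 1.04. The retinal and aldehyde dehydrogenase gene Aldh1a1 differed by 3.03, and the flavin monooxygenase genes Fmo2, Fmo5 and Fmo1 by 1.80, 1.76 and 1.75, while Aldh2 differed by 0.54. Of 41 conjugation enzymes, 25 passed the floor. Toward mesothelial cells 9 reached 2-fold (36.0%, against 45.4% of all genes) and toward liver cells 1 did (beside 3.83%). Once the arrays were median centred 6 and 2 did, beside 23.9% and 9.25% of all genes. The median of the 41 was 0.66. The glutathione transferase genes Gstm2 and Gstm7 differed by 2.81 and 2.10 and the sulfotransferase gene Sult5a1 by 2.60, whereas Mgst3 read 798.7 against 3752, a difference of -2.23 and the SD over 2 probe sets was 1.51. With 1 array a group, no difference between these lists and the P450 families was tested.

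**Figure D5:**
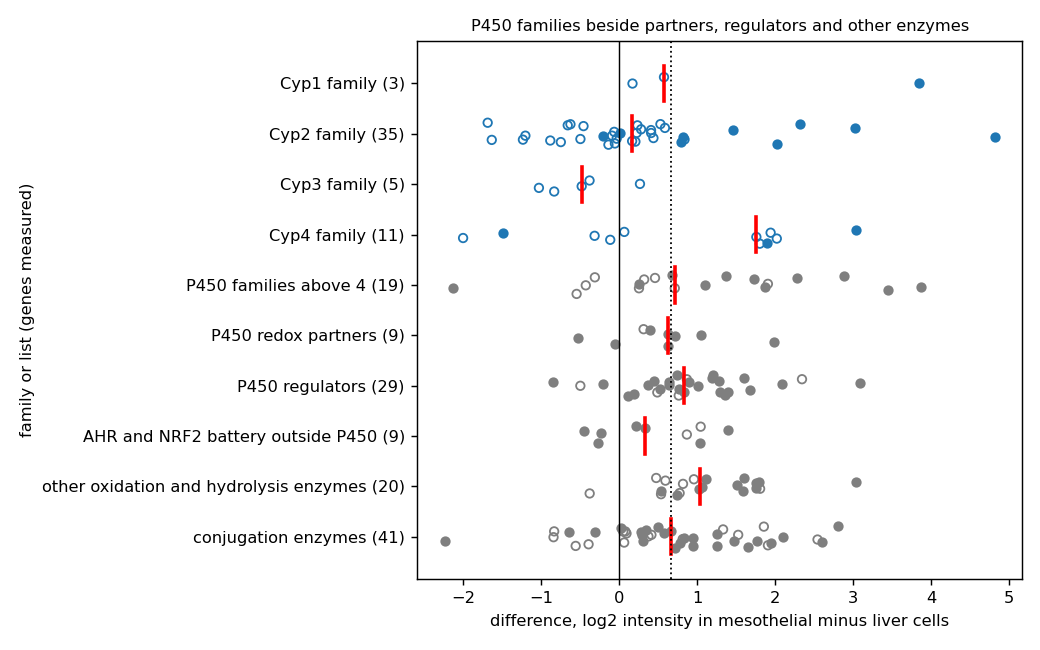
Difference of each gene (log2 intensity in mesothelial minus liver cells, x axis) in P450 families 1 to 4 and in lists of other P450 genes, partners, regulators and enzymes (y axis, with the number of genes measured), with filled points above the floor, open points under it and a red bar at each median. The dotted line is the median of all genes, 0.66, and the family medians run from -0.48 for Cyp3 to 1.76 for Cyp4. The Cyp3 and Cyp4 medians are the values of Cyp3a16 and Cyp4f39, each at the control level on 1 array. The Cyp1 and Cyp2 medians are those of Cyp1a2 and Cyp2d13, and the median of the families above 4 is that of Cyp8b1. These genes were at the control level on both arrays, so those bars read background.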

How the data were processed

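RNA of mesothelial cells and of liver cells at E12.5 was measured on 1 Affymetrix mouse expression array each. Per the labels, 20 ng of total RNA went through NuGEN Ovation amplification and biotin labelling. The authors' deposited intensity values were taken as linear from their range. RMA and Partek stand in the submitters' processing notes without version or role, and the sources used here do not state the scaling between arrays or a genome build. Free text in the labels describes much younger embryos, and the stated age was used. The column medians were 65.8 (mesothelial) and 42.3 (liver).

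Values were put on the log2 scale here with Python 3.11.15, numpy 2.4.6 and pandas 2.3.3, and the calculation was tested on simulated data. Gene symbols came from the platform table (34945 probe sets with 1 symbol, 932 with several, 9160 with none). All 54 member genes matched RefSeq for GRCm38.p6 by gene ID and 0 were renamed. Where a gene had several probe sets, the one brightest on average in log2 was used. Genes in a run have at most 2 other protein coding genes between them. With 1 array a group, the number of arrays limits the precision.

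The words that set the floor could be read on either array or on the array with the larger value. The first was used, after it was seen to give the number of genes in an earlier account of these data (12018). The second gave 11905 genes, and no member changed its call.

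Named were the members above the floor that differed by at least 2-fold, all of family 1, in each subfamily the member above the control level that differed most, those nearest the threshold, members whose probe sets above the floor differ in sign, and in each list up to 4 genes above the floor that differed most and the one furthest the other way. Further genes are named after their values were seen. The members and lists were chosen with earlier results of these data known. Alternatives were another probe set rule, no cross-hybridising probe sets, other scalings, floors and a 4-fold threshold, and low values set to the control level.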

Additional observations from a re-analysis of the deposited data

Results flagged for a closer look

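Probe sets that name a P450 gene of families 1 to 4 but fall outside the rule (several symbols, a pseudogene or a further letter) numbered 6, and 2 of them read above the control level. The probe set shared by Cyp4f37 and Cyp4f16 read 39.2 against 16.4 (mesothelial against liver), a difference of 1.26, beside 1.90 and 0.80 for the probe sets of Cyp4f16 alone. The probe set of the pseudogene Cyp4f41-ps read 25.0 and 17.3, a difference of 0.53.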

How the results depend on the processing

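With 1 array a group no spread between replicates exists, so a value was taken as moved where it changed by more than the pooled SD between probe sets, 0.70, and a count where it changed by over 1.5 times. The count of P450 genes at least 2-fold brighter in mesothelial cells (8) was 6 with the median over probe sets, 7 without cross-hybridising probe sets, after median centring and after quantile normalization, 12 with no floor, 3 with a floor at the 75th percentile, and 5 after centring on hybridisation controls. The count brighter in liver cells (1) was 2 after reference centring, 7 with no floor (3 with low values also held at the control level), 0 with the 75th percentile floor, 0 at 4-fold and 3 after centring on hybridisation controls. The median difference (0.17) was -0.47 after median centring, -0.0238 after quantile normalization, -0.78 after reference centring and -0.91 after centring on hybridisation controls, each of which moves all genes down, and 1.14 over genes above the control level on both arrays. Scalings moved all genes by 0.64 (median), 0.95 (reference) and 1.08 (hybridisation controls). The last is the gap between the medians of the controls on the arrays. Their paired median difference was 0.02, so results under that scaling rest on a shift that the paired controls do not show. Cyp2c23 read -0.0027, -0.14 and -0.26, and Cyp2c68 -0.0449, -0.16 and -0.29, after quantile, reference and hybridisation control scaling. Of 158 values of single named genes under the alternatives, 103 were within the pooled SD of the value given, and the sign turned in 21: the 6 above and 15 in 6 genes under the floor (Cyp1a1, Cyp1a2, Cyp2b10, Cyp2g1, Cyp2r1 and Cyp2u1). The 103 is no measure of how stable the genes are. Median, reference and hybridisation control centring each subtract 1 constant from every gene. Whether a value moved there was fixed by that constant, which is under 0.70 for the first and over it for the others. A probe set rule cannot move a gene that keeps its 1 probe set. Signal over background limits the 17 genes at control level on both arrays, which have no fold. Read on the array with the larger value, the floor left both counts as they were. No paired analysis was possible because each group has 1 array.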
